A study of Rattus norvegicus with 16 samples.

Results

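The Fc receptors are the cell-surface and intracellular proteins that bind the constant end of an antibody. They were taken here as 8 genes chosen by name and known role. For IgG these were Fcgr1a, Fcgr2a, Fcgr2b and Fcgr3a, with Fcer1g as the signalling chain. Fcer1a and Fcer2 were taken for IgE, and Fcgrt as the transporter of IgG. The genes were not picked by measured values, but earlier results of these data were known when they were chosen. All 8 were among the 18031 genes listed for every library, out of 26405 listed for at least 1. RNA-seq was made from whole blood of 16 adult male Sprague-Dawley rats of 85 to 90 days from Charles River, each given 4 injections of saline at 1 ml/kg and 2 h apart and killed 3 h after the last. The blood came from the heart by needle and was frozen, and globin mRNA was depleted before polyadenylated RNA was selected for stranded paired-end libraries. All 16 libraries, numbered as saline controls 1 to 16, form a single group without a drug treatment, so the comparisons possible were between animals and between the codes in the names of the deposited files.

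An Fc receptor links an antibody to a blood cell. The activating IgG receptors and the high-affinity IgE receptor carry no activating motif of their own and depend on the gamma chain encoded by Fcer1g, whose tyrosines are phosphorylated by Src-family kinases and then recruit Syk, whereas Fcgr2b carries an inhibitory tail that recruits the phosphatase SHIP1, encoded by Inpp5d. The low-affinity IgE receptor Fcer2 (CD23) is a lectin of B cells, the high-affinity IgE receptor is known from mast cells and basophils, and Fcgrt (FcRn) pairs with beta-2 microglobulin inside cells and returns IgG to the blood.

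The libraries held 21466776 to 31189549 estimated counts. Levels below are counts divided by DESeq2 size factors, called normalized counts, and since transcript lengths were not used, the levels of different genes were not ranked against each other. A count of 3, taken as the floor, was 0.0962 to 0.140 CPM, the count scaled to 1e+06 per library. Codes in the names of the deposited files, called runs A to F here, divided the libraries, with 3 in A, 5 in B, 2 in C, 4 in D and 1 each in E and F. The labels do not say what a code marks, and the study killed its control animals in several experiments on different dates, so an effect of a code and one of an experiment cannot be told apart. The summed markers of B cells, T cells, natural killer (NK) cells, monocytes, neutrophils, platelets and red cells were above 0 in every library, whereas the eosinophil genes Epx and Il5ra had means under 10 normalized counts. Controls 2, 8, 10 and 12 stood apart by genes of other tissues. The 8 liver genes summed to 463900 normalized counts in control 2 and 20383 in control 8 against a median of 45.5, the 7 heart genes reached 487 in control 10 against a median of 20.1, and control 12 had the highest sums of fat genes (6624) and thymus genes (5770). Controls 7 and 5 had liver sums of 4553 and 2333. Results are also given without controls 2, 8, 10 and 12, and controls 5 and 7 remain in the 12 libraries kept there.

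The activating IgG receptors Fcgr1a and Fcgr2a differed several-fold between animals and had their extremes in the same libraries. Fcgr1a (ENSRNOG00000021199), the high-affinity IgG receptor, ranged from 974.5 normalized counts in control 6 over a median of 2412 to 5157 in control 8, a 5.29-fold range with a mean of 2588 ± 1204 (SD, n = 16). Fcgr2a (ENSRNOG00000003138), a low-affinity IgG receptor, ranged from 1245 in control 6 over a median of 4272 to 9496 in control 8, a 7.63-fold range with a mean of 4366 ± 2353 (SD, n = 16). Both genes were also high in controls 7, 9, 14 and 15 and low in controls 2, 4 and 10. In bulk blood, fewer cells of a type and less RNA per cell cannot be told apart, which holds for every level given here.

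The Fcgr2a level depended on how reads were divided among near-identical entries. The RefSeq annotation lists CD16-related names (fc-gamma RIII, Fcgr3 and Fcgr3a) as synonyms of rat Fcgr2a. It lists CD16-2 and Fcgr4 as synonyms of rat Fcgr3a, so both genes carry CD16-related names. The deposited files hold a second FCGR2A entry (ENSRNOG00000050418) and 2 entries named FCGR3. Of the sum of the 4 Fcgr2a and FCGR3 entries, the Fcgr2a gene took 28.1% to 33.3% and the FCGR3 entry ENSRNOG00000049422 took 63.4% to 70.09% in a library. The other FCGR2A and FCGR3 entries took at most 3.49% and 4.51% and were at 0 in some libraries. The count of Fcgr2a was not a whole number in 16 of 16 libraries, and neither was that of Fcgr2b, since the authors' program divided reads that matched several genes. Values for the entries of this family taken singly are therefore uncertain. Counts were also not whole in 7 of 16 libraries for Fcgr1a and in 11 of 16 for Fcer1g. The sum of the 4 entries ranged from 4152 normalized counts in control 6 to 32470 in control 8, a 7.82-fold range close to that of Fcgr2a alone.

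The shared signalling chain followed the same order of animals. Fcer1g, the gamma chain, ranged from 4967 normalized counts in control 6 over a median of 12308 to 25842 in control 8, with a mean of 12102 ± 5199 (SD, n = 16). Controls 4, 6 and 10 were the low libraries and controls 7 and 8 the high ones. Fcgr2b, the inhibitory IgG receptor, ranged from 533 in control 16 over a median of 1054 to 2727 in control 8, with a mean of 1242 ± 641 (SD, n = 16). Fcgr2b was high in controls 8, 9 and 11, so it shared its highest library with the activating receptors but not its lowest.

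Fcgr3a, a low-affinity IgG receptor that also uses the gamma chain, had another order of animals. Its levels ranged from 106 normalized counts in control 8 over a median of 478 to 821 in control 3, a 7.72-fold range with a mean of 470 ± 230 (SD, n = 16). The library with the highest Fcgr1a, Fcgr2a, Fcgr2b and Fcer1g thus had the lowest Fcgr3a, and the second lowest was control 11 with 133. The ratio of Fcgr3a to Fcer1g spanned 30.4-fold between libraries, from 0.00411 in control 8 to 0.125 in control 6, whereas the ratio of Fcgr1a to Fcer1g spanned 1.85-fold, from 0.149 in control 2 to 0.275 in control 9. Against the inhibitory Fcgr2b, the ratio was 0.0390 in control 8 and 1.06 in control 16 for Fcgr3a, and for the 4 summed Fcgr2a and FCGR3 entries it ran from 6.02 in control 6 to 19.7 in control 16.

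**Figure D1:**
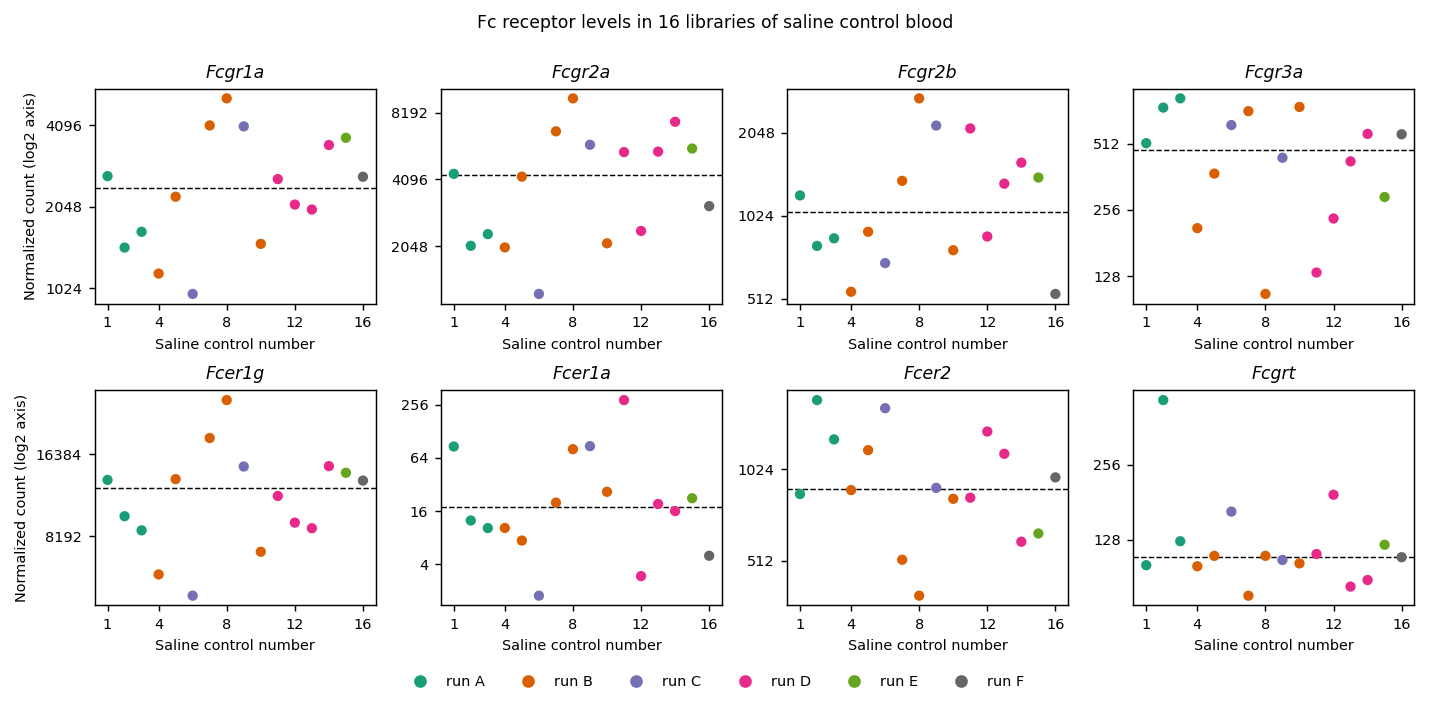
Normalized counts of the 8 Fc receptor genes (y axes, log2 scale, 1 panel per gene with its own range) against the saline control number (x axes), 1 point per library, coloured by run code, with the median of the 16 libraries as a dashed line. Control 8 is the highest point for Fcgr1a, Fcgr2a, Fcgr2b and Fcer1g and the lowest for Fcgr3a and Fcer2, while single libraries lie far above the others for Fcer1a (control 11, 289) and Fcgrt (control 2, 467).

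The receptors for IgE went separate ways. Fcer1a, the IgE-binding chain of the high-affinity receptor, ranged from 1.77 normalized counts in control 6 over a median of 17.6 to 289 in control 11, with a mean of 43.6 ± 71.8 (SD, n = 16). The next highest library, control 9, had 87.1, and without control 11 the mean was 27.2. The lowest level rested on 2 counts (exact 95% Poisson interval 0.242 to 7.22) and the highest on 387 counts (349 to 428), intervals that cover counting error only. Fcer2 (CD23) ranged from 393 in control 8 over a median of 882 to 1730 in control 2, with a mean of 980 ± 384 (SD, n = 16). Its low libraries, controls 7 and 8, were those with the highest Fcer1g, and its second highest, control 6 with 1627, was the one with the lowest Fcer1g.

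Fcgrt, the neonatal Fc receptor, was even across most animals. It ranged from 76.2 normalized counts in control 7 over a median of 110 to 467 in control 2, with a mean of 136 ± 93.1 (SD, n = 16). Control 12 was next at 194, and without control 2 the mean was 114 ± 30.5 (SD, n = 15). Control 2 was the library with the largest sum of liver genes and control 12 that with the largest sums of fat and thymus genes, and the part of those tissues in the Fcgrt level was not tested. Control 8, second in liver genes but with a sum of only 20383 against 463900 in control 2, had an Fcgrt level of 110.

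Most of the Fc receptors varied more between these animals than the median gene did. The coefficient of variation (CV, the SD as a percent of the mean) was 39.2% for Fcer2, 43.0% for Fcer1g, 46.5% for Fcgr1a, 49.0% for Fcgr3a, 51.6% for Fcgr2b, 53.9% for Fcgr2a, 68.5% for Fcgrt and 165% for Fcer1a. Among 8541 genes with a count in every library and averaging at least 100 normalized counts, which all of the receptors except Fcer1a did, the median CV was 24.6% and the upper quartile 35.9%. Among the 2432 of them averaging at least 1000, as Fcgr1a, Fcgr2a, Fcgr2b and Fcer1g did, the median was 29.5%. Over the 12 libraries without controls 2, 8, 10 and 12 the CV was 34.0% for Fcer1g, 33.6% for Fcer2 and between 40.8% and 45.2% for the 4 IgG receptors, against a median of 22.1% and an upper quartile of 31.3% for genes averaging at least 100 there. Fcgrt differed from the others, with a CV of 26.8% without control 2 and of 21.7% over the 12 libraries, close to the median gene. A high CV was not particular to Fc receptors. Over the 16 libraries the CV ran from 69.3% to 257% for the neutrophil markers and from 30.9% to 38.9% for the B-cell markers. For the T-cell markers it ran from 22.4% to 34.4%.

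Promoter sequences are shown for 3 receptors of chromosome 13 that followed different markers in these animals, as given further on: Fcgr2a (neutrophil markers), Fcer1a (basophil and mast cell markers) and Fcgr3a (none of the lists by Pearson r). In the RefSeq order of build GRCr8, Fcgr2b, Fcgr3a and Fcgr2a are direct neighbours, with Fcer1g further along. Each sequence is the 250 bases before the start of the gene from RefSeq, build GRCr8, written 5′ to 3′ in the direction of the gene: chr13:85828686-85828935 on the minus strand for Fcgr2a, chr13:85782386-85782635 on the plus strand for Fcgr3a and chr13:88224680-88224929 on the minus strand for Fcer1a. Capitals mark matches on either strand to GAGGAA, the core bound by the myeloid and B-cell factor PU.1, or to AGATAA or TGATAA, bound by GATA factors.
Fcgr2a: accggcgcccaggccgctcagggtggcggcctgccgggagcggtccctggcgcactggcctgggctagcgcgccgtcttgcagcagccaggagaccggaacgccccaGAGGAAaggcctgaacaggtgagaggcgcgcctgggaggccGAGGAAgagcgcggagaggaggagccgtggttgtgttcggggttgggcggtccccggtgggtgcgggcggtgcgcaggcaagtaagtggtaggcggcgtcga
Fcgr3a: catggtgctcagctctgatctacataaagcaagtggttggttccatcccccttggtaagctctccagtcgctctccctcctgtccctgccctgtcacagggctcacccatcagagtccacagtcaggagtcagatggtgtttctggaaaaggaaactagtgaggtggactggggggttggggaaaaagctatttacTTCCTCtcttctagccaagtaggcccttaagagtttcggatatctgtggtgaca
Fcer1a: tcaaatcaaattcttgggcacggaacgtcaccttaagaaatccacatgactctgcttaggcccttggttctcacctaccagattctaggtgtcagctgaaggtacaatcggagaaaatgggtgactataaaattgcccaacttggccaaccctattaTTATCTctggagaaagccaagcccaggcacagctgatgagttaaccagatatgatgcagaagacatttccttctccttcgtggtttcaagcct
The Fcgr2a sequence held 2 PU.1 cores, that of Fcgr3a held 1 and that of Fcer1a held none, and the only GATA match was the 1 in Fcer1a. The Fcgrt promoter held 2 PU.1 cores. At least 1 PU.1 core occurred in 23.3% of 33469 rat promoters of the same length and a GATA match in 16.9%, so a match is a description of the sequence.

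The levels of Fcgr1a, Fcgr2a, Fcgr2b and Fcer1g rose and fell together across the 16 animals, and Fcer2 ran opposite to them. Of 28 pairs among the 8 genes, 14 had an adjusted p under 0.05 (9 positive and 5 negative; 17 with an unadjusted p under 0.05) in two-sided permutation tests of the log2 levels, with Benjamini-Hochberg adjustment over the 28 pairs. The closest pair was Fcgr1a with its signalling chain Fcer1g, with a Pearson r of 0.952 (permutation p = 1e-05, the smallest that 100000 permutations can give; adjusted p = 0.00014) and a Spearman rho of 0.944 (permutation p = 1e-05, adjusted p = 0.00014). For this pair r was 0.925 without controls 8 and 6, the libraries farthest from the Fcgr1a median, 0.979 after centring within runs and 0.962 in the 12 libraries without controls 2, 8, 10 and 12. Fcgr2a with Fcer1g gave an r of 0.878 (permutation p = 3e-05, adjusted p = 0.00028) and a rho of 0.891 (permutation p = 3e-05, adjusted p = 0.00028). Its r was 0.790 without controls 8 and 6, 0.932 centred within runs and 0.859 in the 12 libraries. Centring within runs, here and below, left out controls 15 and 16, each the only library of its run. Its permutations were made within runs.

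The activating and inhibitory IgG receptors also moved in the same direction. Fcgr2a with Fcgr2b had an r of 0.847 (permutation p = 9e-05, adjusted p = 0.00063) and a rho of 0.882 (permutation p = 4e-05, adjusted p = 0.00028), with r at 0.822 without controls 8 and 6, 0.929 centred within runs and 0.794 in the 12 libraries. Reads shared between these 2 genes could not be separated here. Fcgr1a is not of that family of entries, though its own count was not whole in 7 of 16 libraries. It had an r of 0.779 with Fcgr2b (permutation p = 0.00043, adjusted p = 0.00199) and a rho of 0.774 (permutation p = 0.00067, adjusted p = 0.00375). Its r was 0.708 without controls 8 and 6, 0.913 centred within runs and 0.693 in the 12 libraries. Leaving out control 16 alone, without centring, gave an r of 0.879 for this pair and 0.887 for Fcgr2a with Fcgr2b. The other positive pairs past the threshold were Fcgr1a with Fcgr2a (r = 0.922), Fcgr2b with Fcer1a (r = 0.772), Fcgr2b with Fcer1g (r = 0.703), Fcgr2a with Fcer1a (r = 0.631) and Fcer2 with Fcgrt (r = 0.628). In the 12 libraries the last 3 had an r of 0.568, 0.611 and 0.643 and missed the threshold there, with adjusted permutation p-values of 0.114, 0.0817 and 0.0573. Without the 2 libraries farthest from the median of the first gene, Fcgr2b with Fcer1g had an r of 0.564 (adjusted permutation p = 0.0914) and Fcgr2a with Fcer1a an r of 0.467 (adjusted permutation p = 0.175). After centring within runs, which also left out controls 15 and 16, 7 of the 9 positive and 4 of the 5 negative pairs passed. Those lost were Fcgr2a with Fcer1a, Fcgr2a with Fcgrt and Fcer2 with Fcgrt.

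The negative pairs depended on the scaling. Fcer2 had an r of -0.776 with Fcgr2a (permutation p = 0.00039, adjusted p = 0.00199), -0.772 with Fcgr1a, -0.720 with Fcer1g and -0.616 with Fcgr2b, and Fcgr2a with Fcgrt had -0.532 (adjusted permutation p = 0.0477). For Fcer2 with Fcgr2a the rho was -0.718 (permutation p = 0.00245, adjusted p = 0.00884), and r was -0.648 without controls 8 and 6, -0.803 centred within runs and -0.740 in the 12 libraries. Scaled to CPM of the library total in place of size factors, none of the 5 negative pairs passed and the r of Fcer2 with Fcgr2a was -0.406 (adjusted permutation p = 0.258), while all 9 positive pairs passed. Without the 2 farthest libraries the pairs of Fcer2 with Fcer1g and with Fcgr2b had an r of -0.502 and -0.507 (adjusted permutation p = 0.135 for each). Fcgr3a passed with no other member: its r ran from -0.455 with Fcgr2b (permutation p = 0.0745, adjusted p = 0.116) to 0.385 with Fcer2 (permutation p = 0.14, adjusted p = 0.185). With Fcer1g its r was -0.279 (adjusted permutation p = 0.307), and 0.0885 without controls 11 and 8.

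**Figure D2:**
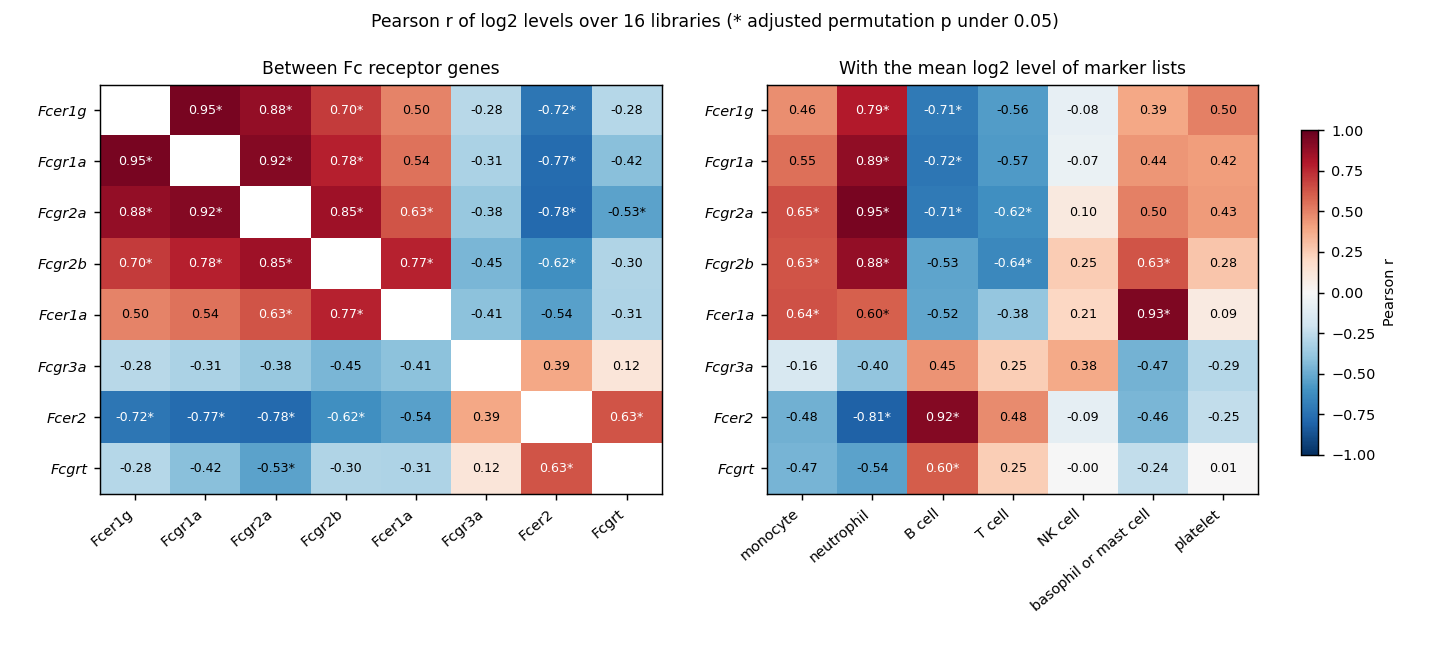
Pearson r of log2 levels over the 16 libraries (colour scale from -1 to 1, with the value in each cell) between the 8 Fc receptor genes on the left and between each gene (rows) and the mean log2 level of 7 marker lists (columns) on the right, where an asterisk marks an adjusted permutation p under 0.05. The block of Fcer1g, Fcgr1a, Fcgr2a and Fcgr2b is positive throughout, Fcer2 is negative with each of them, and the row of Fcgr3a holds no asterisk.

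Across the same animals, Fcgr1a, Fcgr2a, Fcgr2b and Fcer1g followed the neutrophil markers, Fcer2 the B-cell markers and Fcer1a the basophil and mast cell markers. Of 56 relations of the 8 genes to 7 marker lists, 18 had an adjusted p under 0.05 (12 positive and 6 negative; 26 unadjusted), and 6 of these, all positive, also passed without controls 2, 8, 10 and 12. In 4 of the 6 the markers were those of neutrophils, whose summed level ran from 35309 normalized counts in control 6 to 1168480 in control 8. Fcgr2a had an r of 0.950 with the neutrophil markers (permutation p = 1e-05, adjusted p = 0.000187) and a rho of 0.968 (permutation p = 1e-05, adjusted p = 0.00028), and Fcgr1a, Fcgr2b and Fcer1g had an r of 0.885, 0.878 and 0.794. For Fcgr2a r was 0.931 without controls 8 and 6, 0.962 centred within runs and 0.960 in the 12 libraries. The adjusted permutation p in the 12 libraries was 0.00462 for Fcgr1a, 0.00952 for Fcgr2b and 0.0325 for Fcer1g. Without its 2 farthest libraries, controls 8 and 6, the r of Fcer1g with the neutrophil markers was 0.650 (permutation p = 0.0126, adjusted p = 0.0589).

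Each IgE receptor followed a marker list of the cells it is known from. Fcer2 had an r of 0.920 with the B-cell markers (permutation p = 1e-05, adjusted p = 0.000187) and a rho of 0.856 (permutation p = 4e-05, adjusted p = 0.000448). Its r was 0.858 without controls 2 and 8, 0.937 centred within runs, 0.877 in the 12 libraries and 0.953 with CPM of the library total. Fcer1a had an r of 0.932 with the basophil and mast cell markers (permutation p = 1e-05, adjusted p = 0.000187) and a rho of 0.921 (permutation p = 1e-05, adjusted p = 0.00028), with r at 0.898 without controls 6 and 11, 0.954 centred within runs and 0.921 in the 12 libraries. The summed level of those markers ran from 121 normalized counts in control 3 to 9048 in control 11, the library with the highest Fcer1a. The list joins markers of basophils and of mast cells, so the relation does not tell which of these cells Fcer1a followed. Its largest levels in control 11 were those of Cpa3 (4412) and Cma1 (2877). The list also holds Ms4a2, the beta chain of the same receptor.

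The other positive relations had a smaller r, of at most 0.646, and none of them passed over the 12 libraries. The monocyte markers had an r of 0.646 with Fcgr2a, 0.635 with Fcer1a and 0.630 with Fcgr2b, with adjusted permutation p-values of 0.0326, 0.0326 and 0.0356. Over the 12 libraries r was 0.605, 0.568 and 0.670 (adjusted permutation p = 0.129, 0.169 and 0.107). Monocyte and neutrophil sums were both highest in control 8. The monocyte sum there (29146) was mostly Ccr1 (22341), and no other gene of that list was highest in control 8. Cx3cr1 was lowest in control 8 (40.2), and Csf1r was highest in control 6 (3634). The monocyte genes thus did not move as 1 set, and their relations to the receptors were not tested singly. Fcer1a with the neutrophil markers (r = 0.597), Fcgr2b with the basophil and mast cell markers (r = 0.632) and Fcgrt with the B-cell markers (r = 0.602) also passed over 16 libraries. Over the 12 their r was 0.557, 0.619 and 0.752 (adjusted permutation p = 0.169, 0.124 and 0.0503), so for Fcgrt r was larger there although the threshold was missed. The 6 negative relations were of Fcgr1a, Fcgr2a and Fcer1g to the B-cell markers, of Fcgr2a and Fcgr2b to the T-cell markers and of Fcer2 to the neutrophil markers (r = -0.811), and none of them passed over the 12 libraries or with CPM of the library total. Fcgr2b, which is known from B cells as well as myeloid cells, had an r of -0.530 with the B-cell markers (adjusted permutation p = 0.0847), and of -0.781 after centring within runs (adjusted permutation p = 0.0399). After centring within runs, which also left out controls 15 and 16, 9 of the 12 positive and 4 of the 6 negative relations passed. By Spearman rho over 16 libraries 11 and 2 did. Leaving out control 8 left 8 relations past the threshold, and leaving out control 9 left 10.

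Fcgr3a followed none of the 7 marker lists by Pearson r. Its highest r in absolute value was -0.472, with the basophil and mast cell markers (permutation p = 0.0642, adjusted p = 0.12). With the NK-cell markers its r was 0.379 (permutation p = 0.15, adjusted p = 0.209) and its rho 0.662 (permutation p = 0.00604, adjusted p = 0.0376). That r was 0.717 after centring within runs (permutation p = 0.0222, adjusted p = 0.0598), 0.431 without controls 11 and 8, and 0.141 in the 12 libraries, so the relation to NK cells differed with the measure and the libraries used. A list mean does not show its single genes. Cx3cr1 of the monocyte list was lowest in control 8 (40.2) and highest in control 3 (361), as Fcgr3a was. The other monocyte genes did not have these extremes, and no single marker was tested against Fcgr3a.

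**Figure D3:**
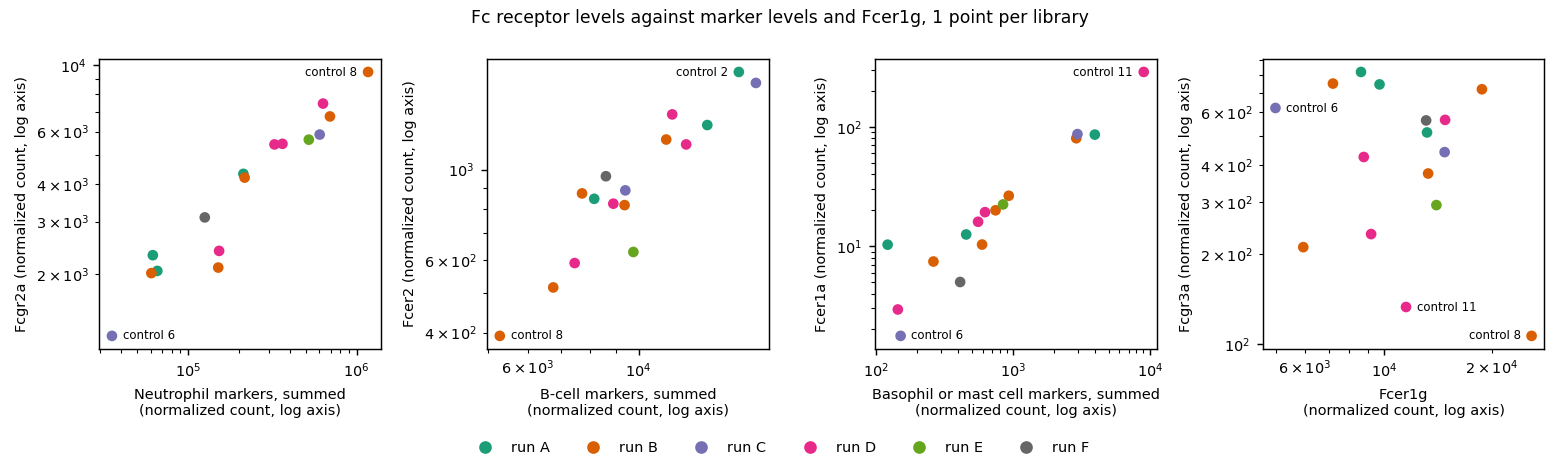
Normalized counts of Fcgr2a against the summed neutrophil markers, of Fcer2 against the summed B-cell markers, of Fcer1a against the summed basophil or mast cell markers and of Fcgr3a against Fcer1g (all axes on a log scale), 1 point per library, coloured by run code. The first 3 panels rise from lower left to upper right, with Fcgr2a from 1245 in control 6 to 9496 in control 8, and in the fourth panel control 8 lies at the highest Fcer1g (25842) and the lowest Fcgr3a (106).

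The partner chains and other Fc-binding genes were measured beside the receptors. Of 15 such symbols, 12 were listed for every library. Fcmr and Faim3 among the 15 name the same gene, which was listed as Faim3. Ms4a2, the beta chain of the high-affinity IgE receptor, ranged from 15.0 normalized counts in control 6 to 723 in control 11, the same lowest and highest libraries as Fcer1a. B2m, the partner of Fcgrt, ranged from 139187 in control 6 to 363853 in control 7, so the library with the highest B2m was the one with the lowest Fcgrt. Cr2, which binds complement fragments and is a ligand of CD23, had a mean of 529 ± 214 (SD, n = 16) and was lowest in control 8, as Fcer2 was. Adam10, the protease that sheds CD23, varied least, with 1207 ± 176 (SD, n = 16).

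Several Fc-receptor-like genes of B cells shared the low level of Fcer2 in control 8. Fcrla, Fcrl1 and Faim3, the last of which encodes the IgM receptor, had means of 1014 ± 380, 621 ± 210 and 2031 ± 701.4 (SD, n = 16), and each was lowest in control 8. Fcrl5 had 38.0 ± 12.6 with its lowest level in control 7, and Fcrlb was near the detection floor with 4.78 ± 2.37. Fcar, the receptor for IgA, ranged from 634 in control 6 to 4275 in control 9. Pigr, the transporter of polymeric immunoglobulins across epithelia, had a median of 11.7 and reached 2699 in control 2, where the liver genes and Fcgrt were also highest. Trim21, a cytosolic antibody receptor, had 399 ± 123 (SD, n = 16).

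Downstream of the receptors, Lyn, a Src-family kinase, ranged from 3851 normalized counts in control 4 to 21338 in control 8, with a CV of 59.6%. Syk, the kinase recruited to the gamma chain, ranged from 1415 in control 10 to 3572 in control 1, with a CV of 25.3%. The inhibitory phosphatases Inpp5d and Ptpn6 had CVs of 23.9% and 28.2%, and Cd247, the zeta chain that can stand in for the gamma chain, had 20.4%. Inpp5d, which Fcgr2b recruits, was lowest in control 7 and highest in control 15, neither of which was an extreme library for Fcgr2b.

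Genes whose log2 levels were most like each receptor over the 16 libraries are given as a description, from 8367 named genes averaging at least 100 normalized counts. For Fcgr1a these were Lgals3 (r = 0.966), Tyrobp (0.966) and Gng10 (0.961), and for Fcer1g they were Pgk1 (0.948), Asmtl (0.945) and Atp6v0b (0.944). Fcgr2a was most like the FCGR3 entry ENSRNOG00000049422 (r = 0.995), with which it can share reads, and then Cebpd (0.986) and Alox5ap (0.985). Fcgr2b was most like Slc39a1 (r = 0.935), Slc30a7 (0.923) and P2ry13 (0.909), and Fcgr3a like Eno3 (0.833), Fpr3 (0.831) and Calhm2 (0.801). The highest r for Fcgr3a was thus the lowest of the 8 genes. Fcer1a was most like Ms4a2 (r = 0.942), Il1rl1 (0.924) and Pcsk1 (0.919), Fcer2 like Tmbim1 (0.975), Tmem206 (0.958) and Ell3 (0.930), and Fcgrt like Aldh6a1 (0.891), Phyh (0.888) and Acat1 (0.885). These similarities are over the same 16 libraries as the relations to markers and are not independent of them.

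No Fc receptor passed the test between runs. The comparison asks whether control animals whose files carry different codes had different levels, and used edgeR's quasi-likelihood test with Benjamini-Hochberg adjustment over 12952 genes in runs A, B and D with 12 libraries. Between runs A and B, 0 of 8 receptors were called against 0% of all genes, between A and D 0 of 8 against 0%, and between B and D 0 of 8 against 2.30%. With an unadjusted p under 0.05 the edgeR test gave 1, 0 and 0 receptors, against 13.5%, 5.41% and 11.3% of all genes. DESeq2 called 0 receptors in each comparison, with an adjusted p for 7 of the 8, and 4.37%, 0.108% and 5.73% of all genes.

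Most receptors changed between runs by less than 2 times the standard error. The receptor with an unadjusted p under 0.05 was Fcgrt, with a log2 fold change of -1.22 ± 0.44 (SE) in run B against run A (adjusted p = 0.241 by edgeR). Run A holds control 2, and without it the log2 fold change was -0.22 (adjusted p = 0.869 by edgeR). Fcgr2a was 0.74 ± 0.54 higher on the log2 scale in B than in A, and Fcgr3a was at -1.04 ± 0.62 in D against A, neither past the threshold. Fcer1a had the widest errors of the 8 genes. Its log2 fold change was 1.57 ± 1.15 in D against B, and its sign turned to -1.17 without control 11. Without controls 2, 8, 10 and 12, Fcgr2b and Fcer1a had an unadjusted p under 0.05 in D against B, where the log2 fold change of Fcer1a was 3.14 (adjusted p = 0.381 by edgeR). The neutrophil markers had a median log2 fold change of 2.13 in B against A and 1.83 in D against A with 0 of 8 called by edgeR in either, 4 and 1 of them with an unadjusted p under 0.05. Of the erythroid markers, 5 of 5 tested were called lower in D than in B by edgeR, and their part in the receptor levels was not tested. Of the 25 Fc receptor signalling genes and the 11 partner genes tested, edgeR called 0 in any comparison of runs. With an unadjusted p under 0.05 there were no signalling genes, and there were 5 partner genes in B against A (Faim3, Fcrla, Fcrl1, Pigr and Trim21) and Pigr in D against A.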

How the data were processed

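Whole-blood RNA was sequenced from 16 saline control rats. Per the labels, the authors used CASAVA 1.8.2, Bowtie 0.12.9, RSEM 1.2.0 and rn5. The values the authors deposited are estimated counts from RSEM, without normalization. In each library 19.3% to 27.1% of them carried decimals, and all were rounded here before use. The authors also replaced outlying values before their own tests, which was not done here. Files listed 18677 to 26405 genes, and the 18031 in every file were used.

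The members and gene lists were chosen with earlier results of these data known. Named were the 8 members, fixed partner and signalling genes, any called pathway gene and the 3 most similar genes per member. Some genes of the lists are not reported here. Codes in the file names (runs A to F) were treated as batches. The labels do not say which animals shared an experiment, so p-values measure only the spread between these libraries. Runs A, B and D were compared with edgeR 4.0.16 (TMM, filterByExpr, 1 fit) in R 4.3.3, with DESeq2 1.42.0 as an alternative, and the code was tested on simulated data. Log2 levels used a pseudocount of 1. Relations were tested two-sided with 100000 permutations. Centring within runs left out controls 15 and 16, the single libraries of runs E and F, and permuted within runs. Alternatives were other scalings, no filter, a pseudocount of 10 and leaving out libraries. Leaving out controls 2, 8, 10 and 12 from the run comparison, summing the Fcgr2a entries and leaving out single libraries from the relations were chosen after seeing the data. Promoters for 4 of the 8 members were found. Intervals and floors cover counting error only. Scripts ran in Python 3.11.15 with scipy 1.17.1, numpy 2.4.6, matplotlib 3.10.9 and pandas 2.3.3.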

Additional observations from a re-analysis of the deposited data

Results flagged for a closer look

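Fcgrt in control 7 lay below the other libraries of its run. Its level was 76.2 normalized counts, and the nearest of the other 4 libraries of run B was at 100.035. Dixon's test was made on the log2 levels, where the gap took 0.737 of the range against a critical value of 0.710. The flag holds for that scale only, and the normalized counts themselves were not tested. In all, 16 such checks were made, of the 8 genes in runs B and D, and chance gives about 0.8 flags among them.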

How the results depend on the processing

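The number of Fc receptors called between runs was 0 in each of the 3 comparisons under all alternatives, which included leaving out each library of runs A, B and D in turn. The share of all genes called moved widely. It was 0%, 0% and 2.30% for A and B, A and D, and B and D with edgeR (298 genes in the last), and 4.37%, 0.108% and 5.73% with DESeq2. Library totals without TMM gave 0.0463% between B and D, a scaling that moved the median gene by -0.50 in B against A and 0.53 in D against B. Without controls 2, 8, 10 and 12 the shares were 0.00781% between A and B and 0% between B and D. Leaving out 1 library at a time gave 0% to 3.93%, 0% to 0.0150% and 0.0155% to 5.44% of genes. Both upper values for A and B and for B and D came without control 4, and between B and D 2 or 3 genes were called without control 5, 11, 13 or 14, and 27 to 95 without control 7, 10 or 12. The log2 change of Fcgr3a in D against B was 0.21 with library totals (adjusted p = 0.74, edgeR) and -0.35 with TMM. That of Fcer1a ranged from -1.51 to 2.85 in D against A and from -1.17 to 2.40 in D against B with 1 library left out, and was negative in both without control 11, where Fcer1a is highest. The causes of the other shifts were not tested.

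The number of pairs of receptors past the threshold was 14 over 16 libraries, 9 with CPM of the library total, and 11 to 17 with 1 library left out, pairs newly past it included. The number of relations to markers was 18, 6 without controls 2, 8, 10 and 12, and 8 to 20 with 1 library left out, likewise with new ones included, with 8 without control 8 and 10 without control 9. Taking Fcgr2a as the sum of 4 entries changed no call. No paired analysis was possible because all libraries belong to 1 group. Depth limits Fcer1a most, which rested on 2 counts in its lowest library.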
